A study of Mus musculus with 9 samples.

Results

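A set of 9 genes of serine synthesis and folate metabolism were followed across macrophages left untreated, given interleukin-4 (IL-4) or given interleukin-27 (IL-27). They were taken by name from the deposited count table and are 9 of its 16200 genes: Phgdh, Psat1, Psph, Shmt1, Shmt2, Mthfd1, Mthfd1l, Mthfd2 and Slc1a4. All 9 passed the filter on low counts and were among the 12587 genes tested. The cells were bone marrow-derived macrophages of mice with the genotype label WT, grown for 6 days with 10% L929 supernatant, a fibroblast-conditioned medium that supplies macrophage growth factor. Each group had 3 libraries of polyA RNA. The IL-4 group is paired in the treatment text with 20 ng/ml for 12 h and the IL-27 group with 100 ng/ml for 6 h, so dose and time differ between the cytokines. That text is shared by every sample and leaves unsaid whether cells given IL-27 were also given IL-4. The labels call the 3 libraries of a group replicates and name no separate animals or cultures for them. P-values here therefore reflect spread among libraries that may be partly or wholly technical.

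The serine pathway branches off glycolysis: Phgdh oxidises a phosphoglycerate intermediate, Psat1 adds an amino group from glutamate, and Psph removes the phosphate to leave serine. Serine hydroxymethyltransferase then moves a carbon unit from serine to folate and leaves glycine, with Shmt2 acting in mitochondria and Shmt1 in the cytosol. In mitochondria Mthfd2 and Mthfd1l oxidise that unit and release it as formate, and in the cytosol Mthfd1 takes up formate for purine, thymidylate and methyl group synthesis. Slc1a4 is a membrane carrier that exchanges serine, alanine and cysteine.

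The libraries held 34577188 to 37951827 counts each. Levels of a gene are given in CPM, counts relative to library size after scaling by TMM factors. Defining macrophage markers were abundant, and the 8 listed summed to 23093 to 31851 CPM in untreated, 14830 to 18548 in IL-4 and 24453 to 26526 in IL-27 libraries. Most of that sum was Lyz2, with means of 18937, 9407 and 20007 CPM in the same order. Csf1r, Adgre1, Mertk and Itgam were lowest under IL-27, with means of 2729, 2314 and 1414 CPM for Csf1r. Means were 878, 783 and 551 CPM for Adgre1, 206, 119 and 91.5 CPM for Mertk, and 1421, 1529 and 1245 CPM for Itgam. Fcgr1 was instead lowest under IL-4 (87.2, 32.7 and 69.1 CPM) and Spi1 in untreated cells (379, 424 and 413 CPM). Cd68 was similar in all groups (1587, 1559 and 1586 CPM). The 7 fibroblast markers summed to 690 to 783 CPM untreated, 511 to 718 under IL-4 and 1063 to 1333 under IL-27, mostly Col1a1 and Col1a2. Among them Lum was near 0, with means of 0.065, 0.028 and 0.091 CPM in the same order. Markers of B cells, T cells, dendritic cells, mast cells, neutrophil precursors and erythroid cells each summed to at most 3.55 CPM in any library. These include Cd3d and Elane at 0 counts in untreated and IL-27 libraries, and Mpo at 0 in untreated and IL-4 libraries. The count table held only 2 of 4 listed mast cell and basophil markers, 3 of 4 T cell markers and 5 of 6 neutrophil markers. The progenitor markers Kit and Cd34 summed to 16.0 to 21.5 CPM untreated, 26.7 to 30.6 under IL-4 and 4.49 to 4.63 under IL-27. The part of these marker differences in the results below was not tested. Untreated replicate 2 and IL-4 replicate 1 stood apart from their groups: across 9553 genes at 5 CPM or more, their deviations from the group means correlated at r = 0.900, a description over genes that are not independent replicates. Values without these libraries are given beside the fold changes of the 9 genes that they moved most. In bulk RNA, fewer cells of a type and less RNA per cell cannot be told apart.

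Both cytokine groups had higher levels of the serine synthesis genes than untreated cells, with Phgdh and Psat1 highest under IL-4 and Psph highest under IL-27. Phgdh stood at 12.4, 13.7 and 11.8 CPM in the 3 untreated libraries, at 115, 74.0 and 69.6 CPM under IL-4, and at 43.6, 40.9 and 40.9 CPM under IL-27. No library of one group overlapped another. The rise was 6.80-fold with IL-4 (log2 2.77 ± 0.18 SE, edgeR adjusted p = 6.63e-06) and 3.30-fold with IL-27 (log2 1.72 ± 0.18, edgeR adjusted p = 7.91e-05). IL-4 replicate 1 was the highest library, 0.67 above the mean of the other 2 on the log2 scale. Among 942 genes of similar GC content to Phgdh (57.2% in the longest GENCODE transcript), the median deviation of that library was 0.39. A part of GC content in the Phgdh level of that library was not tested. Without that library and untreated replicate 2, the log2 fold change of Phgdh under IL-4 was 2.57 ± 0.08.

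Psat1 stood at 33.5, 29.5 and 27.5 CPM untreated, at 104, 94.0 and 93.0 CPM under IL-4 and at 59.5, 59.7 and 61.8 CPM under IL-27. The groups were again separate, in the order untreated, IL-27, IL-4. Psat1 rose 3.21-fold with IL-4 (log2 1.68 ± 0.10, edgeR adjusted p = 2.83e-06) and 2.00-fold with IL-27 (log2 1.00 ± 0.10, edgeR adjusted p = 5.30e-05). Psph, the last enzyme of the route, stood at 8.56, 6.36 and 7.17 CPM untreated, at 13.1, 13.3 and 13.4 CPM under IL-4 and at 17.0, 16.3 and 18.4 CPM under IL-27. Its IL-27 libraries were all above its IL-4 libraries, the reverse of the order in Phgdh and Psat1. The rise of Psph was 1.80-fold with IL-4 (log2 0.85 ± 0.13, edgeR adjusted p = 0.00113) and 2.34-fold with IL-27 (log2 1.23 ± 0.13, edgeR adjusted p = 9.42e-05).

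Both serine hydroxymethyltransferases rose with IL-4, and with IL-27 mitochondrial Shmt2 rose while cytosolic Shmt1 did not pass the test. Shmt2 stood at 30.7, 40.4 and 28.2 CPM untreated, at 91.9, 62.6 and 61.0 CPM under IL-4 and at 63.5, 54.7 and 59.0 CPM under IL-27. Both treated groups lay above every untreated library and overlapped each other. It rose 2.17-fold with IL-4 (log2 1.12 ± 0.18, edgeR adjusted p = 0.00163) and 1.78-fold with IL-27 (log2 0.83 ± 0.18, edgeR adjusted p = 0.00683). Its highest untreated and highest IL-4 libraries were those that stood apart, and without them these log2 fold changes were 1.07 ± 0.08 and 1.00 ± 0.07. Shmt1 was far less abundant, at 2.17, 2.47 and 1.53 CPM untreated, with 5.57, 3.89 and 3.69 CPM under IL-4 and 2.62, 1.68 and 1.70 CPM under IL-27. Its IL-4 libraries lay above all others, while its IL-27 and untreated libraries overlapped. Shmt1 rose 2.13-fold with IL-4 (log2 1.09 ± 0.28, edgeR adjusted p = 0.0165), a call lost without untreated replicate 3 (edgeR adjusted p = 0.0617). Between IL-27 and untreated cells its log2 fold change was -0.04 ± 0.28, with a 95% interval from -0.67 to 0.59 (edgeR adjusted p = 0.929), and it was 0.10 without both libraries that stood apart.

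Of the folate enzymes, Mthfd2 had the largest response to IL-27 among the 9 genes. It stood at 22.7, 25.8 and 26.7 CPM untreated, at 97.5, 89.8 and 86.5 CPM under IL-4 and at 155, 152 and 151 CPM under IL-27. The 3 groups were separate, and the IL-27 libraries differed from each other by only a few CPM. Mthfd2 rose 3.64-fold with IL-4 (log2 1.86 ± 0.09, edgeR adjusted p = 9.77e-07) and 6.09-fold with IL-27 (log2 2.61 ± 0.10, edgeR adjusted p = 2.18e-07). By p-value it ranked 7 of 12587 genes in the IL-27 comparison and 32 in the IL-4 comparison. Mthfd1l, the formate-releasing partner of Mthfd2, stood at 13.6, 13.8 and 15.6 CPM untreated, at 35.8, 33.2 and 36.7 CPM under IL-4 and at 22.0, 25.4 and 25.5 CPM under IL-27. Its groups were also separate, but with IL-4 above IL-27. The rise of Mthfd1l was 2.46-fold with IL-4 (log2 1.30 ± 0.11, edgeR adjusted p = 2.51e-05) and 1.70-fold with IL-27 (log2 0.76 ± 0.11, edgeR adjusted p = 0.000508).

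Cytosolic Mthfd1, like Shmt1, was called higher with IL-4 and was not called with IL-27. It stood at 26.3, 36.0 and 31.8 CPM untreated, at 54.2, 44.3 and 47.0 CPM under IL-4 and at 29.3, 24.5 and 26.6 CPM under IL-27. Every IL-4 library lay above every other library, and the untreated and IL-27 libraries overlapped. Mthfd1 rose 1.55-fold with IL-4 (log2 0.63 ± 0.14, edgeR adjusted p = 0.00730). Between IL-27 and untreated cells its log2 fold change was -0.23 ± 0.14, with a 95% interval from -0.53 to 0.08 (edgeR adjusted p = 0.241). That value was -0.34 without untreated replicate 1 and -0.12 without untreated replicate 2, and it was not called in either case.

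The carrier gene Slc1a4 was called higher with IL-27 and was not called with IL-4. It stood at 2.98, 3.07 and 2.96 CPM untreated, at 3.61, 4.54 and 2.62 CPM under IL-4 and at 15.8, 11.4 and 12.2 CPM under IL-27. The IL-27 libraries lay far above the others, and the IL-4 libraries fell on both sides of the untreated ones. Slc1a4 rose 4.37-fold with IL-27 (log2 2.13 ± 0.21, edgeR adjusted p = 6.64e-05). With IL-4 its log2 fold change was 0.26 ± 0.22, with a 95% interval from -0.22 to 0.74 (edgeR adjusted p = 0.428). That value was 0.051 without IL-4 replicate 2 and 0.44 without IL-4 replicate 3, and it was not called in either case. IL-27 replicate 1 had both the highest Slc1a4 level and the highest fibroblast marker sum (1333 CPM, against 1134 and 1063 in the other IL-27 libraries). Without it, the log2 fold change of Slc1a4 with IL-27 was 1.97 ± 0.22 (edgeR adjusted p = 0.000456). The other IL-27 libraries still had fibroblast marker sums above every untreated (at most 783 CPM) and IL-4 library (at most 718 CPM). Leaving out that library therefore does not address fibroblast content, whose part in the Slc1a4 level was not tested.

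**Figure D1:**
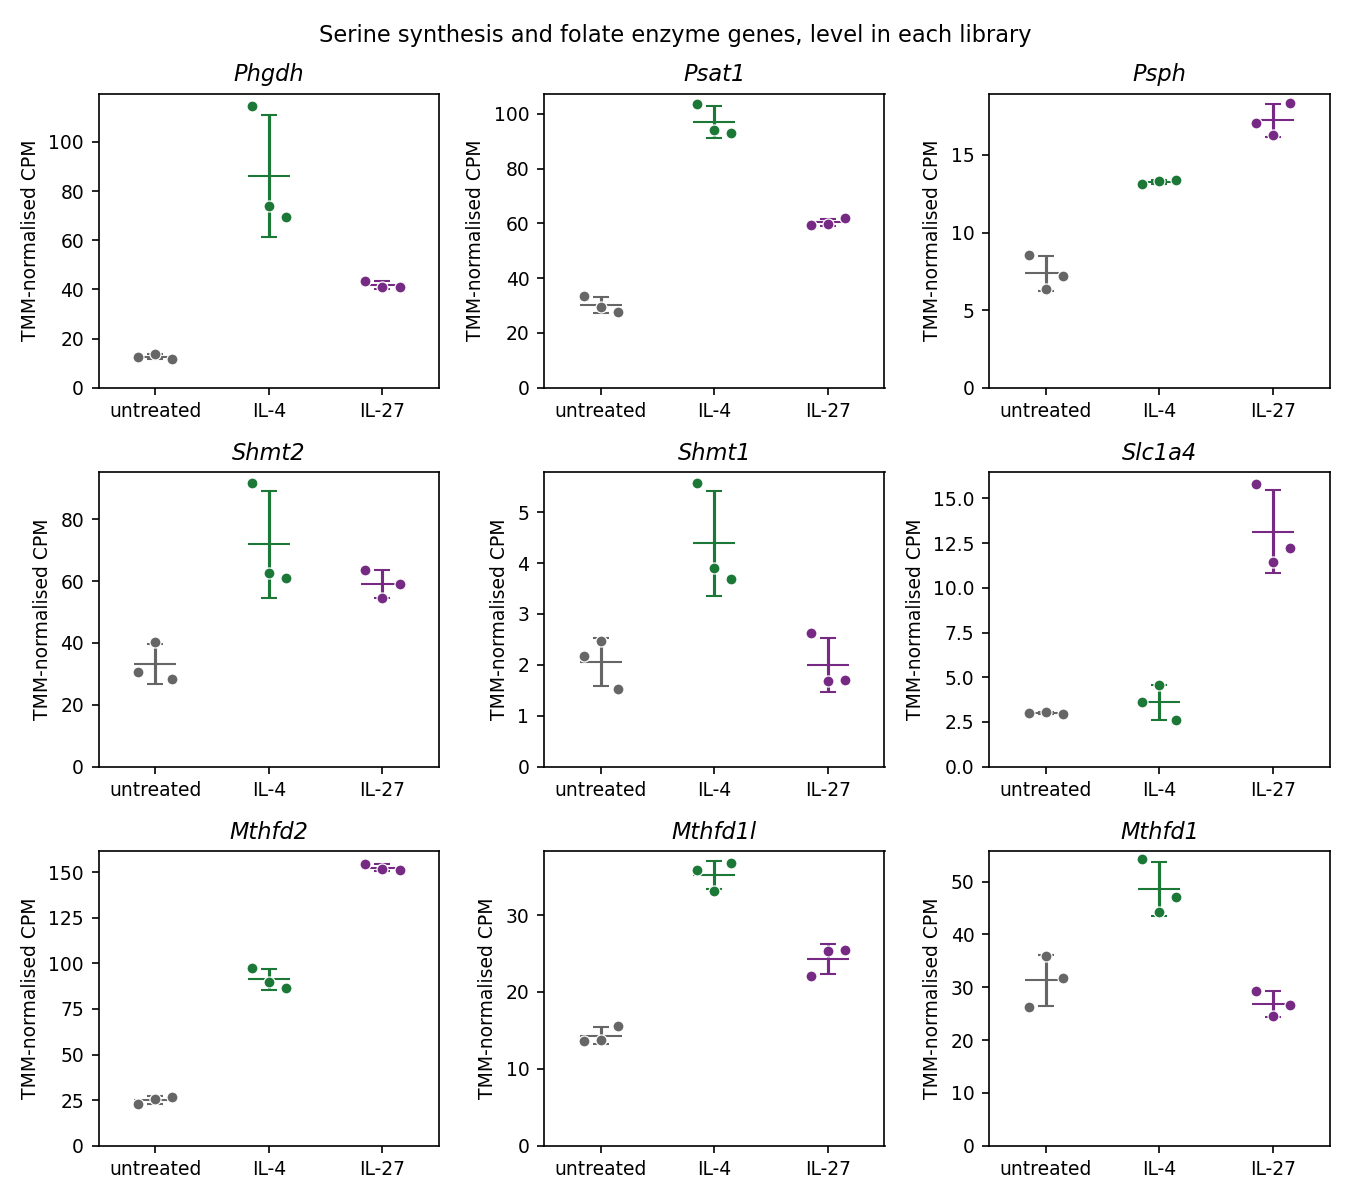
TMM-normalised CPM of each of the 9 genes (y axis, from 0) by group of libraries (x axis); points are libraries, horizontal marks are means and bars are SD over 3 libraries. Phgdh, Psat1, Mthfd1l, Shmt1 and Mthfd1 are highest in IL-4 libraries, whereas Psph, Mthfd2 and Slc1a4 are highest in IL-27 libraries.

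In counts, 8 of the 9 genes were called higher with IL-4 and 0 lower at an edgeR adjusted p under 0.05, where 12.9% of all tested genes were called higher and 12% lower. With IL-27, 7 were called higher and 0 lower, where 14% of all tested genes were called higher and 15.1% lower. The counts lower were also 0 at an unadjusted edgeR p under 0.05 and by DESeq2. The median log2 fold change over the 9 genes was 1.12 with IL-4 and 1.00 with IL-27, and over all tested genes it was -0.01 and 0.00. The 6 genes that were higher in both comparisons, which share the 3 untreated libraries, were Phgdh, Psat1, Psph, Shmt2, Mthfd1l and Mthfd2. The same 8 genes had no overlap between IL-4 and untreated libraries, where 17.8% of all tested genes were higher and 18.2% lower without overlap. The same 7 had none between IL-27 and untreated libraries, where those shares were 26.2% and 26%. The genes were chosen with earlier results of these data known, so these counts describe the set and do not test it. Dropping both libraries that stood apart left the counts at 8 and 7. Over all tested genes, calls higher then rose from 1630 to 3061 with IL-4 and from 1766 to 3089 with IL-27. The shares above therefore do not apply to that fit.

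The direct comparison of IL-27 with IL-4 split the genes. Mthfd2 was 1.67-fold higher under IL-27 (log2 0.74 ± 0.09, edgeR adjusted p = 0.000116), Slc1a4 3.65-fold higher (log2 1.87 ± 0.21, edgeR adjusted p = 7.21e-05) and Psph 1.30-fold higher (log2 0.38 ± 0.13, edgeR adjusted p = 0.0396). The Psph call was lost under 9 of 16 alternatives, among them leaving out any IL-4 or IL-27 library (edgeR adjusted p from 0.00918 to 0.140 over all 16). Phgdh was lower under IL-27 than under IL-4 with a log2 difference of -1.04 ± 0.17 (edgeR adjusted p = 0.000909), and so were Psat1 (-0.68 ± 0.10) and Mthfd1l (-0.54 ± 0.10). Without both libraries that stood apart, the difference for Phgdh was -0.79 ± 0.07. The cytosolic enzyme genes were lower too, Mthfd1 with -0.86 ± 0.14 and Shmt1 with -1.13 ± 0.27 (edgeR adjusted p = 0.000684 and 0.00859). For Shmt1 the difference was -0.93 ± 0.28 without both libraries that stood apart. Shmt2 did not pass the test, with a log2 fold change of -0.28 ± 0.18 and a 95% interval from -0.68 to 0.12 (edgeR adjusted p = 0.240). That value was -0.068 without IL-4 replicate 1, and -0.075 without both libraries that stood apart. Thus 3 genes were called higher, where 18.8% of all tested genes were, and 5 lower, where 21% were. The same 3 and 5 did not overlap between these groups, where 28% of all tested genes were higher and 28.7% lower without overlap. Because the cytokines differ in dose and time, this comparison is of the 2 treatments as given.

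**Figure D2:**
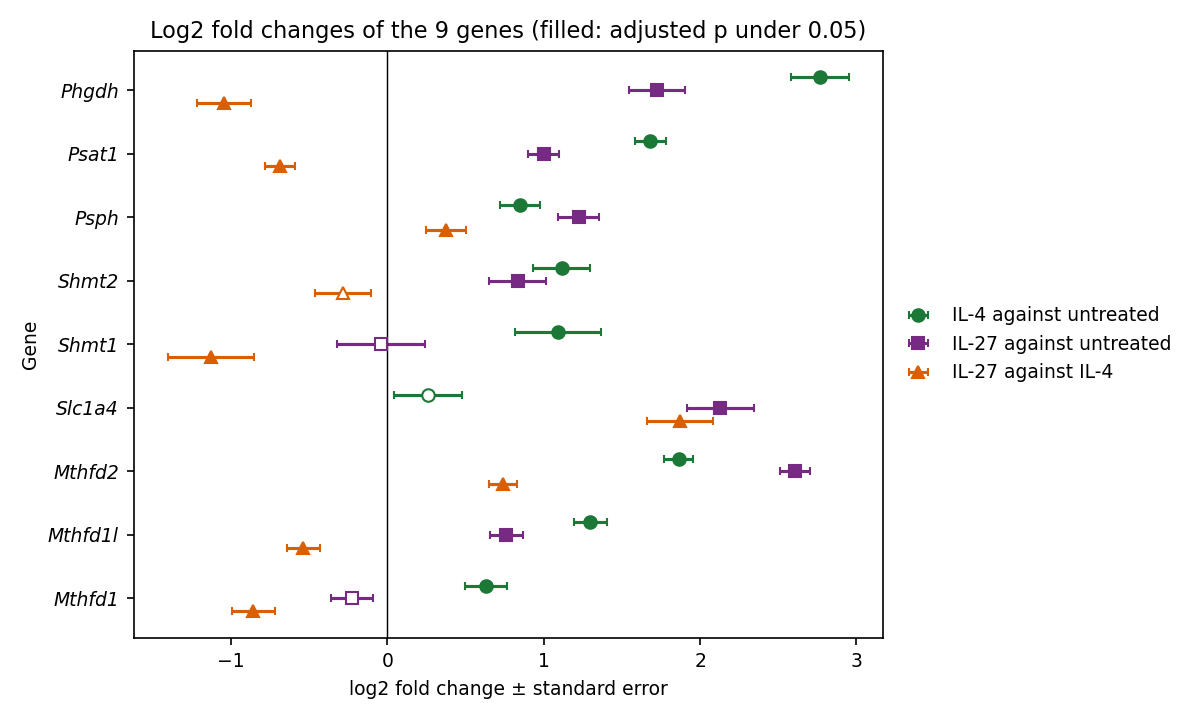
Log2 fold change (x axis) with its standard error for each of the 9 genes (y axis) in the 3 comparisons; filled symbols passed an edgeR adjusted p under 0.05 and open ones did not. IL-4 against untreated is open only for Slc1a4 (0.26), IL-27 against untreated only for Shmt1 (-0.04) and Mthfd1 (-0.23), and IL-27 against IL-4 only for Shmt2 (-0.28).

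Levels of different genes were compared per length, on the authors' FPKM scale (counts corrected for the length of the gene and the size of the library). Untreated cells held most Shmt2, at 14.2 ± 1.77 FPKM (SD, n = 3), followed by Psat1 at 12.1 ± 1.67 and Mthfd2 at 10.5 ± 0.937 FPKM, and neighbours in that order overlapped between libraries. Mthfd1 (7.48 ± 0.767 FPKM) and Phgdh (6.71 ± 0.191 FPKM) came next and overlapped each other. The lowest were Slc1a4 (0.761 ± 0.0376 FPKM) and Shmt1 (0.665 ± 0.128 FPKM), which also overlapped. The highest gene was 21.3-fold above the lowest on the FPKM scale.

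The order changed with treatment. Under IL-4, Phgdh moved from the fifth place to the first, at 46.6 ± 10.3 FPKM, with libraries from 39.6 to 58.4 FPKM. Its highest library was IL-4 replicate 1, which stood apart, and its range overlapped that of Psat1 at 39.8 ± 0.0864 FPKM. Psat1 in turn overlapped Mthfd2 at 39.4 ± 0.578 FPKM, and Shmt2 followed without overlap at 31.6 ± 5.54 FPKM. Under IL-27, Mthfd2 stood alone at the top with 63.3 ± 1.18 FPKM. Shmt2 (25.2 ± 2.08 FPKM) and Psat1 (23.8 ± 0.615 FPKM) overlapped below it, and Phgdh followed at 21.9 ± 0.929 FPKM. Slc1a4 was no longer near Shmt1 under IL-27, at 3.29 ± 0.604 against 0.642 ± 0.176 FPKM. The span from highest to lowest gene was 49.7-fold under IL-4 and 98.6-fold under IL-27.

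**Figure D3:**
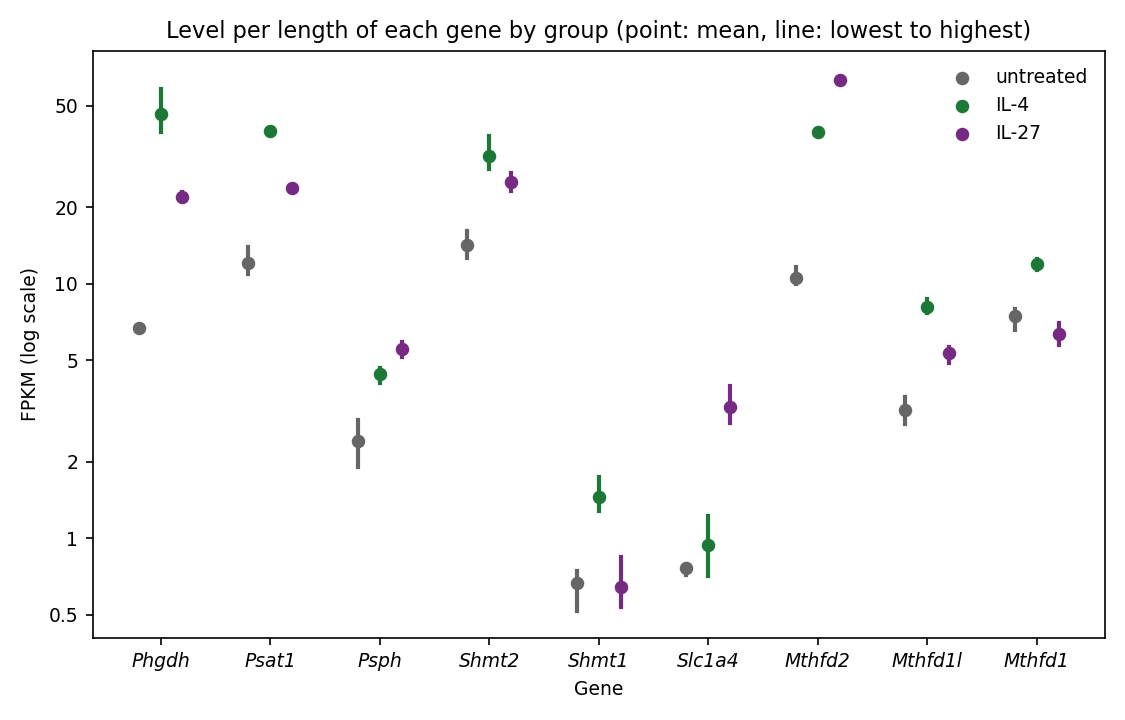
FPKM of the 9 genes (y axis, log scale) by gene (x axis) and group; points are means and vertical lines run from the lowest to the highest of 3 libraries. Phgdh has the highest mean under IL-4 (46.6 FPKM), with a range that overlaps Psat1. Mthfd2 leads under IL-27 (63.3 FPKM), while Shmt1 has the lowest mean in untreated and IL-27 libraries.

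Mitochondrial and cytosolic enzymes were also set against each other within each library, as the log2 ratio of their FPKM values, in which library size cancels. The ratio of Shmt2 to Shmt1 was 18.8, 21.7 and 24.4 in untreated libraries, 21.9, 21.3 and 22.0 under IL-4 and 32.2, 43.1 and 46.1 under IL-27. Every IL-27 library was above every other library, and the IL-4 libraries lay within the untreated range. On the log2 scale the difference was 0.89 between IL-27 and untreated and 0.01 between IL-4 and untreated (two-sided exact permutation p = 0.1 and 0.8). The value between IL-4 and untreated changed sign without untreated replicate 1.

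The ratio of Mthfd2 to Mthfd1 gave the widest separation. It was 1.51, 1.26 and 1.47 in untreated libraries, 3.15, 3.55 and 3.23 under IL-4 and 9.25, 10.9 and 9.98 under IL-27. The groups were separate, and on the log2 scale the differences from untreated were 1.23 with IL-4 and 2.83 with IL-27 (two-sided exact permutation p = 0.1 for each). IL-27 exceeded IL-4 by 1.60 (two-sided exact permutation p = 0.1). For Mthfd1l to Mthfd1 the ratio was 0.479, 0.355 and 0.456 untreated, 0.613, 0.694 and 0.724 under IL-4 and 0.696, 0.961 and 0.889 under IL-27. Both treated groups lay above all untreated libraries, by 0.66 and 0.98 on the log2 scale, and overlapped each other (difference 0.32, two-sided exact permutation p = 0.2). With 3 libraries against 3 the smallest p this test allows is 0.1, so none of the 9 ratio tests could reach 0.05, and the smallest Benjamini-Hochberg adjusted value by these exact tests was 0.129.

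**Figure D4:**
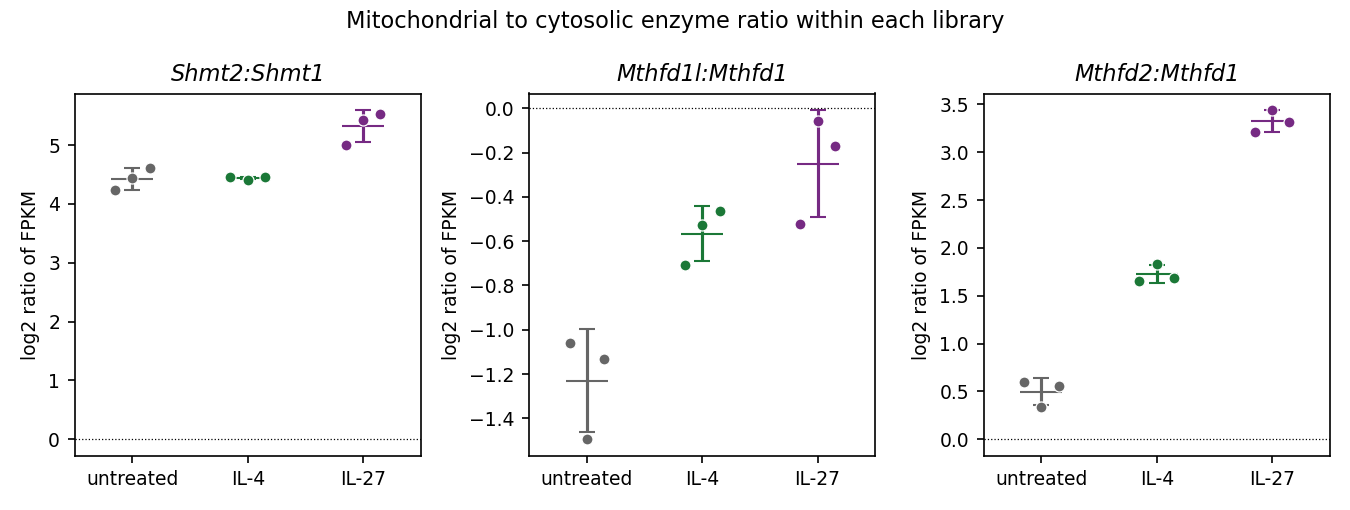
Log2 ratio of FPKM of a mitochondrial to a cytosolic enzyme gene (y axis) in each library by group (x axis); points are libraries, marks and bars are the mean and SD of 3, and the dotted line is equal FPKM. Shmt2:Shmt1 is higher in every IL-27 library than in any other, and Mthfd2:Mthfd1 climbs from a mean of 0.50 in untreated to 1.73 in IL-4 and 3.32 in IL-27 libraries.

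Because 6 of the genes rose with both cytokines, the sequences around their start sites were read from RefSeq for GRCm38.p6, an older build than the GRCm39 named by the submitters. All 9 genes matched, with 10 promoters since Psat1 has 2 starts. Each window runs from 250 bases before the start to base 20 of the transcript. The motifs searched on both strands were TGATGNAA, the core bound by ATF4 with C/EBP partners, the E-box CACGTG bound by MYC, and TTC paired with GAA across a gap of 4 bases (the STAT6 type) or 3 bases (the type of other STATs). Shown are the windows of Slc1a4 and Shmt2, which held a match (in capitals), and those of Mthfd2 and Phgdh, the largest responders to IL-27 and IL-4, which held none. The windows are chr11:20332694-20332963, chr10:127522425-127522694, chr6:83317585-83317854 and chr3:98339950-98340219, all on the minus strand and printed 5′ to 3′ in the direction of the gene.
Slc1a4: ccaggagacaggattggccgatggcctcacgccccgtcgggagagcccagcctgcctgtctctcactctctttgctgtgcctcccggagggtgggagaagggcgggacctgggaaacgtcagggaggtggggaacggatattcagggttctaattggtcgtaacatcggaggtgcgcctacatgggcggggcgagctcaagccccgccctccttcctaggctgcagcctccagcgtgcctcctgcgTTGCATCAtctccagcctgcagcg
Shmt2: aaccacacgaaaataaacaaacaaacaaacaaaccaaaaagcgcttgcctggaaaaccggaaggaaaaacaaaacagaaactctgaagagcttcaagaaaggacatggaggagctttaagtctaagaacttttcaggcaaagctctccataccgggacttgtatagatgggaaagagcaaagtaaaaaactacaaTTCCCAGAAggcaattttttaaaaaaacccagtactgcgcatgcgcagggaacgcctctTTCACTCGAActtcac
Mthfd2: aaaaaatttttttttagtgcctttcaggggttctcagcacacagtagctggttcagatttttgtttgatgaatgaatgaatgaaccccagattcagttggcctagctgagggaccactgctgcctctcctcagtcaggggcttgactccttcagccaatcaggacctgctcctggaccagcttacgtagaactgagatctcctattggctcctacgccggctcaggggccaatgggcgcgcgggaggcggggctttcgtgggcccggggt
Phgdh: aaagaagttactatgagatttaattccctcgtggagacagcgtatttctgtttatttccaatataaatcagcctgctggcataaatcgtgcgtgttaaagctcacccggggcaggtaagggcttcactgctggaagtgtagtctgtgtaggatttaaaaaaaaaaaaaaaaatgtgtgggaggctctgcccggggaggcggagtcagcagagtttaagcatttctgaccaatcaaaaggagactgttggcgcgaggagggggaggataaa

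Slc1a4, called with IL-27 and not with IL-4, held the ATF4 and C/EBP core across its start, from position -4 to 4 and read on the opposite strand. That core was in 1 of the 10 windows and in 3.69% of 32851 promoters of the same length. Shmt2 held a match with the 3-base gap from position -55 to -47 and one with the 4-base gap from 5 to 14, motifs found in 7.58% and 6.30% of promoters. The E-box was in 0 of the 10 windows and in 6.57% of all promoters. GC content was 64.4% in the Slc1a4 window, 54.1% in that of Mthfd2, 45.2% in that of Phgdh and 41.1% in that of Shmt2, against a median of 52.6% over all promoters. A match describes these letters only, and the absence of one says nothing of sites outside the window.

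The other genes of serine and folate metabolism held calls in both directions. Of 51 further genes listed for folate enzymes, folate and serine carriers, glycine cleavage, the methionine cycle and serine use in lipids, 46 were tested. With IL-4, 11 were called higher, 4 lower and 31 did not pass, with a median log2 fold change of 0.06. Of all tested genes, 12.9% were called higher and 12% lower with IL-4, so the 4 lower are a smaller share than that. With IL-27, 10 were called higher, 10 lower and 26 did not pass, with a median of 0.10. The shares of all tested genes with IL-27 were 14% higher and 15.1% lower. Without both libraries that stood apart, the counts were 17 higher and 7 lower with IL-4, and 16 higher and 12 lower with IL-27. Calls over all tested genes rose in that fit too, to 3061 higher and 2848 lower with IL-4. With IL-27 they rose to 3089 higher and 3224 lower. The calls higher with IL-27 fell to between 4 and 5 on leaving out any IL-27 library, and those with IL-4 to 6 and 7 without untreated replicates 1 and 3.

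Among the 13 other folate enzymes tested, 4 rose and 1 fell with IL-4, and 2 rose and 2 fell with IL-27. The IL-27 counts are near the shares of all tested genes (14% higher and 15.1% lower). With IL-4 those shares were 12.9% and 12%. Tyms, which uses folate carbon to make thymidylate, stood at 6.15 ± 0.819 CPM untreated, 20.2 ± 3.38 CPM under IL-4 and 2.85 ± 0.428 CPM under IL-27 (SD, n = 3). It rose 3.29-fold with IL-4 (edgeR adjusted p = 8.94e-05) and fell by 1.11 (log2) with IL-27 (edgeR adjusted p = 0.00135). Atic, which spends formyl-folate in purine synthesis, rose from 54.9 ± 5.34 to 122.7 ± 15.2 CPM with IL-4 (edgeR adjusted p = 6.62e-05). With IL-27 the cytosolic formyl-folate dehydrogenase Aldh1l1 fell from 9.44 ± 2.44 to 3.98 ± 0.327 CPM (edgeR adjusted p = 0.00105). Its mitochondrial relative Aldh1l2 rose from 3.32 ± 1.33 to 6.71 ± 0.834 CPM (edgeR adjusted p = 0.0202), a call lost without IL-27 replicate 1 or 2.

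Of 8 carriers, 2 rose and 1 fell with IL-4, and 3 rose and 3 fell with IL-27. The shares over all tested genes were 12.9% higher and 12% lower with IL-4, and 14% and 15.1% with IL-27. Sfxn1, the mitochondrial serine importer, rose 1.38-fold with IL-4 and 1.49-fold with IL-27, from 25.1 ± 0.442 to 34.7 ± 1.14 and 37.4 ± 1.43 CPM (edgeR adjusted p = 0.00272 and 0.000658). The folate receptor gene Folr2 fell with IL-27 from 9.18 ± 2.86 to 2.15 ± 0.381 CPM (edgeR adjusted p = 0.000356), and the sideroflexin Sfxn2 from 11.8 ± 0.982 to 6.68 ± 0.122 CPM (edgeR adjusted p = 0.000760). With IL-4 the reduced folate carrier Slc19a1 rose 1.41-fold (edgeR adjusted p = 0.0121) and the proton-coupled folate transporter Slc46a1 fell by 0.65 in log2 units (edgeR adjusted p = 0.00499). The Slc19a1 call was lost without IL-4 replicate 3 (edgeR adjusted p = 0.0508).

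Of 6 tested genes of glycine cleavage and serine breakdown, 1 rose with IL-4 and 0 were called with IL-27. Over all tested genes, 12.9% were higher and 12% lower with IL-4, and 14% and 15.1% with IL-27. A single call among so few genes is near the share higher with IL-4. At an unadjusted edgeR p under 0.05, 1 was higher and 1 lower with IL-27, and DESeq2 called 1 lower and 0 higher. The riser was Gcat, which acts in threonine breakdown to glycine, from 1.85 ± 0.653 to 3.69 ± 0.517 CPM (edgeR adjusted p = 0.0212), a call lost without untreated replicate 1, untreated replicate 3 or IL-4 replicate 1, and with only these 2 groups in the fit. In the methionine cycle and transsulfuration list, 3 of 10 tested genes rose with IL-4 and 0 fell by edgeR, by an unadjusted edgeR p under 0.05 or by DESeq2. With IL-27, 4 rose and 2 fell. With IL-4 Mat2a, which makes the methyl donor S-adenosylmethionine, rose 1.41-fold (edgeR adjusted p = 0.00788). With IL-27 methionine synthase Mtr fell by 0.75 (log2) while its reactivating reductase Mtrr rose 1.84-fold (edgeR adjusted p = 0.000937 and 0.000704). Cth, which releases cysteine from cystathionine, had 2 or 3 counts in each untreated library and 19 to 24 in each IL-27 library (edgeR adjusted p = 0.00781). Of 9 genes of serine use in lipids, 1 rose and 2 fell with IL-4, and 1 rose and 3 fell with IL-27. The counts that rose are near the shares of all tested genes given above. Serinc5, of a family named as serine incorporators, fell from 40.1 ± 1.61 CPM to 28.9 ± 1.20 with IL-4 and 24.6 ± 0.807 with IL-27 (edgeR adjusted p = 0.00312 and 0.000235). Its relative Serinc3 fell with IL-4 from 860.3 ± 52.2 to 601 ± 62.5 CPM (edgeR adjusted p = 0.00306). With IL-27 the serine palmitoyltransferase subunit Sptlc2 rose from 128 ± 10.5 to 183 ± 3.47 CPM, while the small subunit Sptssa fell from 132 ± 10.4 to 95.9 ± 1.93 CPM (edgeR adjusted p = 0.00109 and 0.00748).

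**Figure D5:**
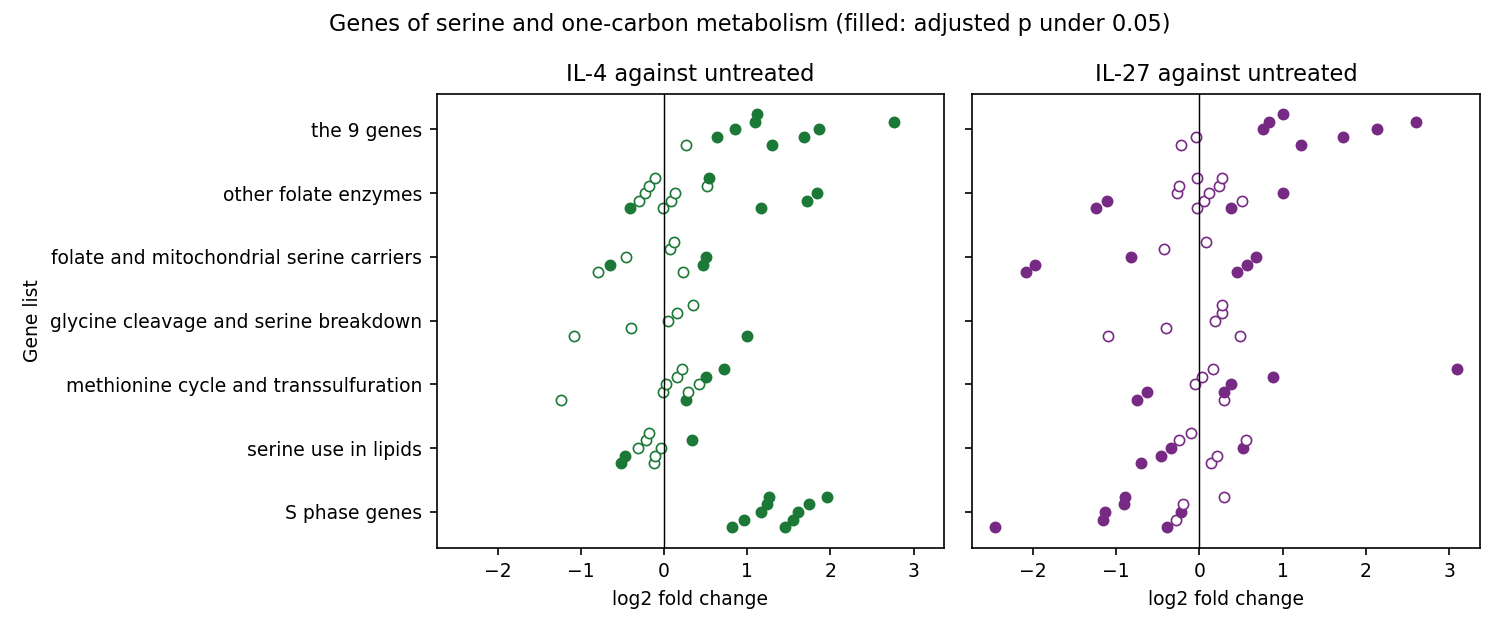
Log2 fold change (x axis) of every tested gene in 7 lists (y axis), for IL-4 against untreated (left) and IL-27 against untreated (right); filled points passed an edgeR adjusted p under 0.05. The 9 genes lie mostly to the right of 0 in both panels, the other lists lie on both sides, and the S phase genes lie to the right with IL-4 and mostly to the left with IL-27.

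Neutral amino acid carriers beside Slc1a4 included further genes that rose with IL-27: of 6 tested, 3 rose and 1 fell with IL-4, and 4 rose with IL-27 and 0 fell by edgeR, by an unadjusted edgeR p under 0.05 or by DESeq2. By edgeR, 12.9% of all tested genes rose and 12% fell with IL-4, and 14% and 15.1% with IL-27. Slc7a5, the large neutral amino acid exchanger, rose from 13.3 ± 0.840 CPM to 32.9 ± 6.45 with IL-4 and 102 ± 5.18 with IL-27 (edgeR adjusted p = 0.000106 and 1.19e-06). The glycine carrier Slc6a9 rose from 2.20 ± 0.185 to 8.62 ± 2.42 CPM with IL-27 (edgeR adjusted p = 0.000122). Slc38a2, a sodium-coupled carrier of small neutral amino acids including serine, rose from 183 ± 21.5 to 369 ± 18.1 CPM with IL-27 (edgeR adjusted p = 9.15e-05). With IL-4 Slc38a2 was the carrier that fell, by 0.36 (log2, edgeR adjusted p = 0.0320). That call was lost in 7 of 9 fits that left out 1 library.

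Transcription factors known to act on serine and folate genes differed between the treatments. Atf4, which drives the amino acid stress response, stood at 127 to 133 CPM untreated, 209 to 223 CPM under IL-4 and 463 to 488 CPM under IL-27, a rise of 1.66-fold and 3.68-fold (edgeR adjusted p = 7.78e-05 and 2.81e-07). Myc, a growth factor-induced activator, stood at 15.5 to 20.2 CPM untreated, 66.0 to 84.3 CPM under IL-4 and 19.7 to 22.4 CPM under IL-27. It rose 4.13-fold with IL-4 (edgeR adjusted p = 6.40e-06), and with IL-27 its log2 fold change was 0.23 ± 0.13 (edgeR adjusted p = 0.217). That IL-27 value passed without both libraries that stood apart (0.33 ± 0.09, edgeR adjusted p = 0.00266). Nfe2l2, the antioxidant regulator, fell by 0.71 (log2) with IL-4 (edgeR adjusted p = 0.000258) and did not pass with IL-27 (0.10 ± 0.09, edgeR adjusted p = 0.430).

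Genes of DNA replication moved in opposite directions with the 2 cytokines. Of 10 S phase genes, 10 rose and 0 fell with IL-4, with a median log2 fold change of 1.36, while 0 rose and 7 fell with IL-27, with a median of -0.64. Both counts of 0 were also 0 at an unadjusted edgeR p under 0.05 and by DESeq2. Among all tested genes, edgeR called 12.9% higher and 12% lower with IL-4, and 14% and 15.1% with IL-27. Mcm6, a subunit of the replication helicase, rose 2.74-fold with IL-4 (edgeR adjusted p = 3.43e-06). With IL-27 the ribonucleotide reductase subunits Rrm1 and Rrm2 fell by 1.14 and 1.16 (log2; edgeR adjusted p = 5.00e-05 and 0.000235). The part of cell cycle and of these transcription factors in the levels of the 9 genes was not tested.

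Genes with the pattern most like 3 of the enzymes were found by the root mean square difference of centred log2 CPM over all 9 libraries, among 9397 named genes at 5 CPM or more. Closest to Phgdh were the adaptor gene Bcar3 (0.16), the transcription factor Klf4 (0.27), Mcf2l (0.30) and B3gnt7 (0.33), against a median difference of 1.17 over all these genes. Closest to Psat1 were the coactivator gene Ppargc1b (0.13), the G1 cyclin gene Ccnd1 (0.15), Clic4 (0.16) and the intermediate filament gene Nes (0.17), against a median of 0.75. Closest to Mthfd2 were Aldh18a1 (0.24), which opens proline synthesis, the arginine importer Slc7a1 (0.29), Pmepa1 (0.31) and the growth factor gene Hbegf (0.35), against a median of 1.13.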

How the data were processed

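PolyA RNA of bone marrow-derived macrophages was sequenced in 9 libraries, 3 in each group. The authors deposited whole-number counts for each gene. The submitters' processing notes list HTSeq, HISAT2 and fastp without versions, and the genome build GRCm39. The deposited FPKM values are the authors' counts corrected for gene length and library size. Gene lengths were worked back from counts, library totals and FPKM as a median over the libraries. They were whole within 1e-06 bases for 100% of genes, as FPKM made from these counts would give. A median does not check each library by itself. Counting strand and annotation: not given in the sources used here.

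Counts were tested in edgeR 4.0.16 (R 4.3.3) with TMM factors, filterByExpr with a minimum count of 10, 1 quasi-likelihood fit of all 9 libraries and Benjamini-Hochberg adjustment over 12587 genes, with calls at an adjusted p under 0.05. Standard errors are the log2 fold change divided by the square root of F. The fit was tested on simulated data with independently drawn counts. Those data held no libraries that stood apart, so they say nothing of the fit under such libraries. Library totals were 34577188 to 37951827, and intervals cover spread between libraries. Alternatives were DESeq2 1.42.0, RLE factors, other filters, the groups compared alone, a replicate block and libraries left out. The labels do not say whether equal replicate numbers pair the libraries, and the main fit used no block. Same-number deviations correlated between -0.797 and 0.666. They cannot decide on pairing, since 2 libraries of unlike number deviated together (r = 0.900). Ratios were tested by exact permutation. The 9 genes are named whatever their result, and genes of other lists were taken from the 3 called genes of smallest p in each list and comparison, with all listed regulators. The genes and lists were chosen with earlier results of these data known. For 1 gene that this rule would name, the values are not reported here.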

Additional observations from a re-analysis of the deposited data

How the results depend on the processing

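Of 27 fold changes of the 9 genes, 24 kept their direction and their call under all 16 alternatives. Shmt1 with IL-4 and Psph between IL-27 and IL-4 lost their call under some. Shmt1 with IL-27 was called under none, but its log2 value turned to 0.10 without both libraries that stood apart and ranged from -0.28 to 0.10 on leaving out 1 library. The log2 ratio of Shmt2 to Shmt1 between IL-4 and untreated ranged from -0.084 to 0.10 on leaving out 1 library. With a replicate block, calls of the 9 genes were 8 higher with IL-4, 7 higher with IL-27, and 2 higher and 5 lower between IL-27 and IL-4. The other serine and folate genes called higher with IL-4 (11) became 7 with only the groups compared in the fit, 17 without both libraries that stood apart and 6 to 13 on leaving out 1 library, and those called lower (4) became 7 without both. Those called higher with IL-27 (10) became 6 with the replicate block, 16 without both and 4 to 12 on leaving out 1 library. Those higher in IL-27 than IL-4 (6) became 10 without both. Over all tested genes, dropping both libraries raised the calls with IL-4 from 1630 to 3061 higher and from 1515 to 2848 lower, with IL-27 from 1766 to 3089 higher and from 1904 to 3224 lower, and in IL-27 over IL-4 from 2366 to 3560 higher. With only the groups compared, 984 were lower with IL-4. The cause of these changes was not tested. Shmt1 had the fewest counts of the 9 genes, which limits its precision.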
